A study of Mus musculus with 12 samples.

Results

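Kif3a and B9d1 are a pair of genes of the primary cilium in which called cytosines of unconverted RNA were described across 12 RNA bisulfite sequencing (RNA BS-seq) libraries of adult mouse neural stem cells (NSCs). Their records were taken as all cytosines whose gene name in the deposited lists was Kif3a or B9d1, and they were 2 of the 16172 genes named there. Kif3a had 883 listed cytosines and B9d1 had 373, together 1256 of 6384216. A cytosine was called a site where, in both replicates of at least 1 condition, coverage was at least 20 reads, at least 6 reads were unconverted and the methylation level was at least 10%. The methylation level is the share of unconverted reads among the reads without a variant base. By this rule 3 of the 6462 called sites lay in these genes, 2 in Kif3a and 1 in B9d1. The sites were chosen by these measured levels, coverages and read counts, and the levels given below are descriptions without a test.

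The NSCs came from the subventricular zone of male wild-type C57BL/6 mice of 6 to 8 weeks, and were grown as monolayers with EGF and bFGF for 4 days in 1.5 μM (low folate, LF), 10 μM (medium folate, MF) or 80 μM (high folate, HF) folic acid. Poly(A) RNA was taken from whole cells (LF, MF, HF; here total RNA) or from the pooled polysome fractions of a sucrose gradient (pLF, pMF, pHF; here polysome RNA), with 2 replicates in each of the 6 conditions. MF is the folic acid level of common culture media, so the design compared deficiency and supplementation with MF, and polysome with total RNA. The cultures are proliferating cells kept in growth factors, and the sources used here do not say how many animals they came from.

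The primary cilium is a single antenna of the cell surface that is built by intraflagellar transport and that concentrates hedgehog signalling. In the subventricular zone, NSCs extend such a cilium towards the ventricle. Kif3a encodes a motor subunit of heterotrimeric kinesin-II, which carries intraflagellar transport particles from the base of the cilium to its tip. B9d1 encodes a B9 domain protein of the MKS complex of the transition zone, the gate at the base of the cilium that controls which membrane proteins enter. 5-methylcytosine (m5C) in mRNA is read by bisulfite because the methylated base resists conversion, and NSUN2 and NSUN6 are its best known writers in mRNA, NSUN6 being known for a CTCCA motif and NSUN2 for G-rich sequence just after the site.

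The bases around each site are shown because each of the sites had a different context. The letters are the mm10 reference of the plus strand from 5′ to 3′, written as DNA, and the capitals mark the motif that holds the cytosine: in the first Kif3a line and in the B9d1 line the site is the first capital, and in the second Kif3a line it is the last.

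Kif3a site at chr11:53598796 (window chr11:53598786-53598806): ggccacggacCTCCAagggga
Kif3a site at chr11:53598827 (window chr11:53598817-53598837): aaagatGGGGCgaaggtgagc
B9d1 site at chr11:61512669 (window chr11:61512659-61512679): tgttcgctctCAGGGatttgt

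Both genes lie on the plus strand of chromosome 11, Kif3a (ENSMUSG00000018395) at chr11:53567379-53601967 and B9d1 (ENSMUSG00000001039) at chr11:61505144-61512931. Both Kif3a sites were in exon 18 of 19 of the transcript Kif3a-202, a coding exon at chr11:53598707-53598831, and were 31 bases apart. The first Kif3a site was base 3 of codon 698 of 725 and lay 35 bases before the end of the exon. The second was base 1 of codon 709 and lay 4 bases before the end of the exon, so that the last letters of its line belong to the intron. The B9d1 site was base 1 of codon 164 of 204 in exon 7 of 7 of B9d1-201, whose exon spans chr11:61512652-61512931. The B9d1 position was exonic in 5 of 6 annotated transcripts but coding in 2 of them, and both Kif3a positions were coding in 5 of 8.

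CTCCA starting at the site was held by 35 of the 6462 called sites (0.542%) and by 0.716% of all listed cytosines, both strands being read as the RNA. Among the 352 called sites with coverage of at least 20 in all 12 libraries, which include the first Kif3a site, 11 (3.13%) had it. The C of the B9d1 site was followed by any base and then GGG. This CNGGG context was held by 136 called sites (2.10%), by 49 of the 352 (13.9%) and by 2.01% of all listed cytosines. The second Kif3a site closed a GGGGC run, a context that was frequent among sites of the libraries labelled HF. Of the 2590 sites called in the libraries labelled HF and in no other condition, 1499 (57.9%) closed such a run. The same run was closed by 22 of the 3872 sites called in another condition (0.568%) and by 0.492% of all listed cytosines. In a folding calculation over 151 spliced bases (129 for the second Kif3a site), the probability of the cytosine being paired at 70 °C was 0.719 and 0.785 for the Kif3a sites and 0.522 for the B9d1 site.

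The libraries differed in ways that touch these genes. Summed coverage ran from 1186213013 to 2857966129 base reads over listed cytosines, and the background share of unconverted reads from 0.128 to 0.193%. The 2 libraries labelled HF stood apart from LF and MF: they held 6369 and 5182 cytosines past the calling thresholds against 2150 to 2641. At the sites that the study lists for HF, the reads in these libraries are not those listed there, while nearly all those of the other libraries match, so that every HF value and comparison below describes the libraries as labelled and the doubt about the label was not settled. Site calls, mean levels and likeness over all libraries are also given without them, and comparisons of HF rest on them. Replicate 2 of pHF also stood apart, with a median coverage of 920 against 335 to 605 in the other 11 libraries and 38353 cytosines with a level above 90%. The 5 NSC markers listed of 6 (Nes, Vim, Fabp7, Msi1, Pax6) summed to 6975 to 10793 base reads per 1000000 of summed coverage, and Sox2 was not listed under its own name. Most of each sum was Vim (4940 to 9414), and the members did not move together. Nes had 1770 to 2782 in total and 387 to 912 in polysome RNA. Under the HF label Fabp7 had 156 and 172 against 702 to 1143 elsewhere, and Msi1 had 96.9 and 114 against 3.34 to 16.5. Markers of ependymal cells, which carry motile cilia (4 of 5 listed, Dnah5 at 0), summed to 0.737 to 1.43 per 1000000 in total and to 0.187 to 0.555 in polysome RNA. The neuron list (4 of 5 listed, Rbfox3 at 0), mostly Map2 in total RNA, summed to 118 to 192 in total and to 24.2 to 63.2 in polysome RNA. The astrocyte list (3 of 4 listed, S100b at 0), nearly all of it Aldh1l1, stood at 15.7 to 79.5 in total and at 5.10 to 20.4 in polysome RNA. The sums of all 3 lists were lower in polysome than in total RNA at each folate concentration, in both replicates, but not every member was. Tubb3 had 38.9 and 55.9 in pLF against 11.0 and 6.91 in LF. In pMF it had 41.7 and 45.4 against 15.3 and 8.14 in MF. Rsph1 had 0.330 and 0.547 in pLF against 0.114 and 0.245 in LF. In pHF it had 0.371 and 0.450 against 0.250 and 0.117 under the HF label. The microglia list (2 of 4 listed, Csf1r and Aif1 at 0), nearly all of it Cx3cr1, stood at 21.3 to 25.3 in the libraries labelled HF and at 4.77 to 14.7 elsewhere. The mesenchymal list (7 of 7 listed), mostly Col1a2, summed to 4686 to 5037 per 1000000 in the libraries labelled HF and to 1511 to 3423 in the other libraries. Its member Fbn1 had 230 and 271 under the HF label against 235 to 273 in LF and MF. The oligodendrocyte lineage list (4 of 5 listed, Sox10 at 0), nearly all of it Olig1, stood at 881 to 902 per 1000000 in the libraries labelled HF against 1431 to 3159 elsewhere. Its member Pdgfra went the other way, with 5.18 and 5.69 under the HF label against 0.220 to 4.27 elsewhere. The part of these marker differences in the results below was not tested.

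The first Kif3a site was called in pHF and in no other condition. At each folate concentration its level was below 1% in total RNA and higher in polysome RNA. In total RNA, the LF replicates had 5 unconverted reads of 1342 and 7 of 1446, the MF replicates 6 of 1564 and 4 of 1630, and the replicates labelled HF 9 of 1758 and 9 of 1624. In polysome RNA, the pLF replicates had 19 unconverted reads of 313 and 60 of 733, the pMF replicates 14 of 304 and 24 of 518, and the pHF replicates 80 of 621 and 94 of 683. The 6 polysome libraries thus held 14 to 94 unconverted reads on less coverage than any total library, in which the unconverted reads numbered 4 to 9.

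As a level, the first Kif3a site in LF stood at 0.428% ± 0.0789 (SD, n = 2), in MF at 0.315% ± 0.0977 and under the HF label at 0.533% ± 0.0299. The polysome levels were 7.13% ± 1.50 for pLF, 4.62% ± 0.0198 for pMF and 13.3% ± 0.623 for pHF. The order of the levels was pHF, pLF, pMF, HF, LF and MF. The pHF replicates (12.9 and 13.8%) lay above those of pLF (6.07 and 8.19%), which lay above those of pMF (4.61 and 4.63%). LF (0.373 and 0.484%) and MF (0.245 and 0.384%) overlapped, and the replicates labelled HF (0.512 and 0.554%) were just above both. The Wilson 95% intervals, which cover counting error only, ran from 0.159 to 0.869% in replicate 1 of LF and from 3.92 to 9.29% in replicate 1 of pLF. The latter overlapped the intervals of both pMF replicates (2.76 to 7.58% and 3.13 to 6.80%). Those of the replicates labelled HF (0.270 to 0.970% and 0.292 to 1.05%) overlapped those of LF and MF. The lowest polysome level, 4.61%, was above the highest total level, 0.554%.

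Over all libraries the first Kif3a site averaged 0.425% (SD 0.114, n = 6) in total RNA and 8.36% (SD 4.07, n = 6) in polysome RNA, a ratio of 19.6. Since the site was called through pHF alone, where it is high, the ratio follows in part from the rule and was not ranked against other sites. The total mean was 0.371% without the libraries labelled HF, the ratio was 15.8 without both HF and pHF, and the polysome mean was 7.28% without replicate 2 of pHF.

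The B9d1 site was called in pLF and in no other condition, and had unconverted reads in both RNA pools. In total RNA, the LF replicates had 70 unconverted reads of 924 and 63 of 1055, the MF replicates 57 of 792 and 50 of 1068, and the replicates labelled HF 28 of 332 and 37 of 256. In polysome RNA, the pLF replicates had 102 unconverted reads of 756 and 188 of 1674, the pMF replicates 71 of 836 and 93 of 836, and the pHF replicates 84 of 898 and 114 of 938. Unlike at Kif3a, the site was well covered in polysome RNA, and its lowest coverage was in the libraries labelled HF.

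The mean B9d1 level of LF was 6.77% ± 1.13 (SD, n = 2), that of MF 5.94% ± 1.78 and that of the libraries labelled HF 11.4% ± 4.26. The polysome means were 12.4% ± 1.60 for pLF, 9.81% ± 1.85 for pMF and 10.8% ± 1.98 for pHF. The order was pLF, HF, pHF, pMF, LF and MF. LF (5.97 and 7.58%) and MF (4.69 and 7.20%) overlapped, as did pLF (11.2 and 13.5%), pHF (9.35 and 12.2%) and pMF (8.50 and 11.1%) taken in that order. The libraries labelled HF (8.43 and 14.5%) spanned all 3 polysome conditions. Polysome replicates were above the total replicates at the same folate in LF and MF, and overlapped with them in HF.

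Across all libraries the B9d1 site averaged 8.05% (SD 3.40, n = 6) in total RNA and 11.0% (SD 1.82, n = 6) in polysome RNA. Its ratio was 1.36, again not ranked, since the site was called through a polysome condition. Without both HF and pHF the ratio was 1.74, and the total mean without the libraries labelled HF was 6.36%.

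The second Kif3a site was called in the libraries labelled HF alone. There 35 of 147 and 32 of 127 reads were unconverted, 24.5% ± 0.981 (SD, n = 2). In replicate 2 of pLF it had 1 unconverted read of 212 (0.472%), and in the other 9 libraries it was not listed, which means fewer than 10 reads or no unconverted read. Its coverage of 147 and 127 in the libraries labelled HF compares with 1758 and 1624 at the first Kif3a site, 31 bases away in the same exon. Without the libraries labelled HF this site is not called, and 2 sites remain.

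**Figure D1:**
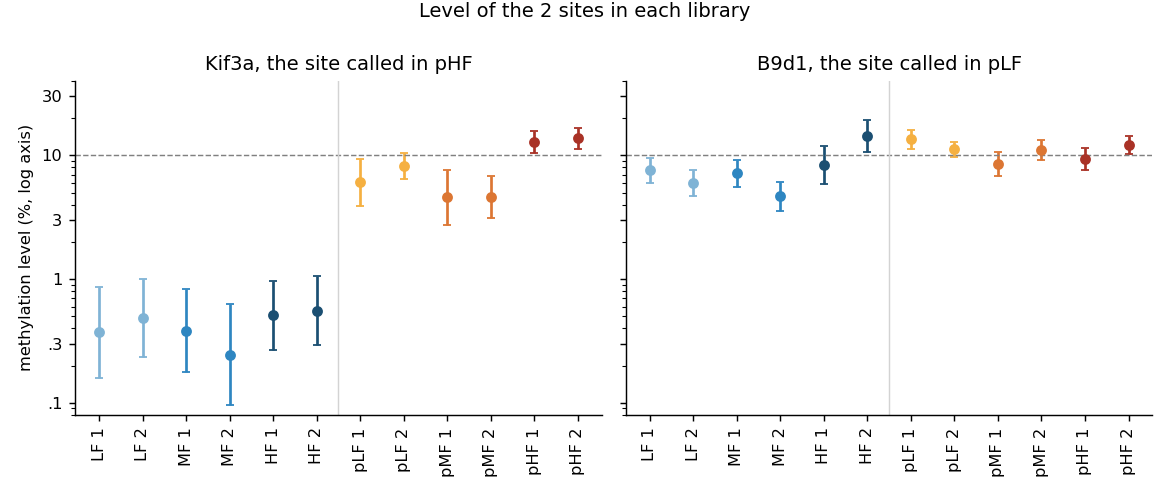
Methylation level in percent (vertical, log axis) in each of the 12 libraries (horizontal) for the first Kif3a site (left) and the B9d1 site (right), 1 point per library with the Wilson 95% interval of its reads and a dashed line at 10%. The 6 polysome points of Kif3a lie between 4.61 and 13.8% and its total points between 0.245 and 0.554%, and the B9d1 points of both pools lie between 4.69 and 14.5%.

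The rule's thresholds lay between the following values. Just inside, the lower B9d1 replicate of pLF had 11.2%, and just outside, the lower replicate of pHF had 9.35%. Among cytosines that were never called, the nearest were Kif3a chr11:53588788 in the libraries labelled HF (4.35 and 10.3%, on 23 and 29 reads) and Kif3a chr11:53588760 in LF (4.30 and 5.21%, on 93 and 96 reads). In B9d1 the nearest was chr11:61505293 in MF, with 3.57 and 4.35% on 23 and 28 reads. Calling with a minimum level of 20% in place of 10% left 1 site, the second Kif3a one, and the 6 other settings of coverage, reads, level and replicates left 3.

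The neighbouring cytosines of the first Kif3a site and of the B9d1 site were almost fully converted, and those of the second Kif3a site were not examined. Within 25 bases of the first Kif3a site and inside the exon there were 9 other cytosines, and 0 to 17 of their reads were unconverted per library, 0 to 0.243%. The highest level at any 1 of them in any library was 0.967%. Within 25 bases of the B9d1 site there were 12 others, with 0.0294 to 0.533% of reads unconverted per library and a highest single level of 0.985%. Cytosines that were not listed were counted as 0 unconverted reads at the median coverage of the window. In replicate 1 of pMF no read was unconverted at the 9 Kif3a neighbours, which allows a share of up to 0.110% (3 reads).

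The neighbours were tested between pools with the called sites left out. They are not fully independent of the rule, since none of them passed it and the median coverage used for unlisted ones includes the site. In replicate 1 of pMF this median at Kif3a, 304, was the coverage of the site alone. At Kif3a, the mean unconverted share of the neighbours was 0.0899% in polysome and 0.0638% in total RNA (exact two-sided permutation test of 6 against 6 libraries, p = 0.584, adjusted p = 0.584 over the 2 genes). At B9d1 it was 0.0725% in polysome and 0.156% in total RNA (exact permutation test, p = 0.383, adjusted p = 0.584). The window was chosen after seeing the data. The planned measure, over the other cytosines listed in all 12 libraries, had none in Kif3a and rested on 1 in B9d1, at 0.687% in polysome and 0.646% in total RNA (exact permutation test, p = 0.786). Within folate concentrations, the polysome minus total difference over the window at Kif3a was 0.0809 points in LF, -0.00073 in MF and -0.0019 in HF, and at B9d1 0.0084, -0.0725 and -0.185 points. Over all listed cytosines of Kif3a other than the sites, the difference was 0.0931 points (exact permutation test, p = 0.0281), but a cytosine is listed only where it has an unconverted read and the number of listed cytosines was 34 to 186 in polysome against 178 to 348 in total libraries.

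**Figure D2:**
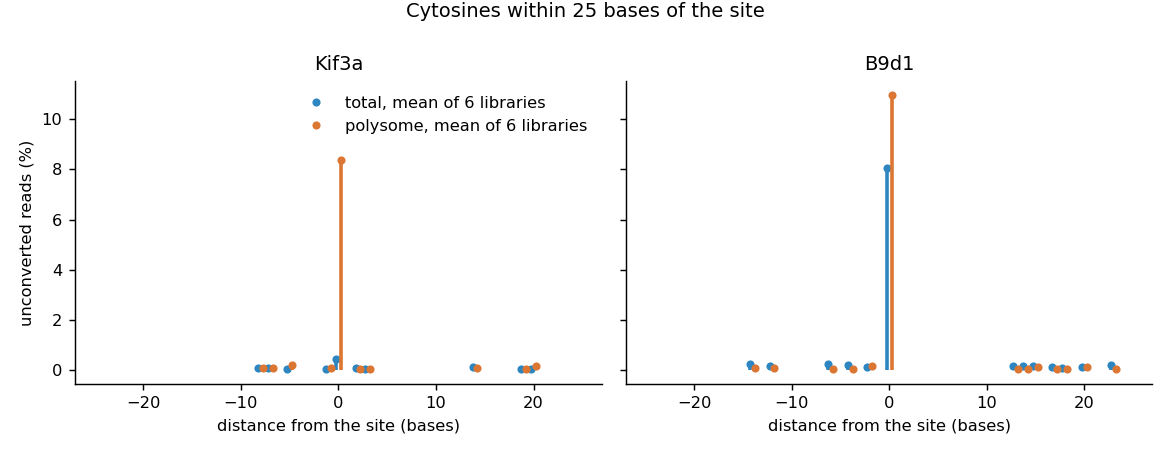
Unconverted reads in percent (vertical) at each cytosine within 25 bases of the first Kif3a site (left) and of the B9d1 site (right), by distance from the site in bases (horizontal), as the mean of 6 total (blue) and 6 polysome (orange) libraries. The called site is the peak at distance 0, at 0.425 and 8.36% in Kif3a and 8.05 and 11.0% in B9d1, and no neighbour exceeded 0.985% in any library.

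Gene coverage was next compared, because a level is a share of the RNA present. Coverage was estimated by an additive fit of positions and libraries over the exonic cytosines of a gene. It is given on a log2 scale on which the median gene of each library is 0. The fit held 431 positions in Kif3a and 192 in B9d1, of which a library listed as few as 34 and 25. The values thus depend on which cytosines were listed. In bulk RNA, fewer cells with a transcript and less RNA per cell cannot be told apart.

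Kif3a was lower in polysome than in total RNA in LF. The LF replicates had a centred log2 coverage of 1.13 and 1.11, the MF replicates 1.00 and 1.09, and the replicates labelled HF 0.92 and 1.00. In polysome RNA the pLF replicates had 0.14 and 0.52, the pMF replicates 0.26 and 0.80, and the pHF replicates 0.66 and 1.06. The total replicates were close together, and the polysome replicates were wide apart and overlapped with the total ones of the same folate concentration in HF only. The log2 difference between pLF and LF was -0.79 (SE 0.21, limma adjusted p = 0.00669), in a comparison in which 51.0% of the 8606 genes tested were called and 23.1% were called lower. Without replicate 1 of pLF it was -0.60 (adjusted p = 0.0501), and with TMM scaling -1.39 (adjusted p = 0.000107).

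The Kif3a difference between pMF and MF was -0.51 (SE 0.21, limma adjusted p = 0.0597, 49.7% of genes called), and that between pHF and HF was -0.10 (SE 0.21, adjusted p = 0.709, 50.1% called). With the replicate block, or with at least 20 positions, the pMF difference was called. The pMF difference was -0.78 without replicate 2 of pMF (adjusted p = 0.0187), -0.24 without replicate 1 of pMF (adjusted p = 0.434) and -1.12 with TMM scaling (adjusted p = 0.000606). The pHF difference was -0.56 with TMM scaling (adjusted p = 0.0381), and its sign turned with summed coverage scaling (0.18, adjusted p = 0.550) and without replicate 1 of pHF (0.098, adjusted p = 0.767). The only cytosine of Kif3a listed in all 12 libraries was the first called site, whose coverage the rule used, so it gave no test of its own.

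B9d1 was higher in polysome than in total RNA at each folate concentration, relative to the median gene. The LF replicates had a centred log2 coverage of 0.96 and 0.95, the MF replicates 0.62 and 0.86, and the replicates labelled HF -0.11 and 0.39. In polysome RNA the pLF replicates had 1.55 and 1.78, the pMF replicates 1.62 and 1.45, and the pHF replicates 1.42 and 1.25, and no polysome replicate overlapped with a total one. The differences were 0.71 (SE 0.19, limma adjusted p = 0.00672), 0.80 (SE 0.19, adjusted p = 0.00358) and 1.20 (SE 0.19, adjusted p = 0.000204) in LF, MF and HF, where 28.0%, 27.5% and 28.3% of genes were called higher.

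The B9d1 differences in LF and MF depended on the scaling. TMM scaling took its factors from the 1110 genes with at least 5 cytosines listed in all 12 libraries. It raised the median of all genes by 0.15 to 0.40 in total libraries and lowered it by 0.21 to 0.36 in polysome libraries. With it the B9d1 differences in LF and MF were 0.11 (limma adjusted p = 0.640) and 0.19 (adjusted p = 0.408), while that in HF was 0.74 (adjusted p = 0.00528). On the 2 cytosines of B9d1 listed in all 12 libraries, of which the called site is 1, the differences were 0.043, 0.074 and 1.48 in LF, MF and HF, given without a test since the rule used the coverage of the site.

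Between folate concentrations in total RNA, Kif3a coverage was not called and B9d1 coverage was called lower in the libraries labelled HF. LF minus MF was 0.08 (SE 0.21, limma adjusted p = 1.00) for Kif3a and 0.21 (SE 0.19, adjusted p = 1.00) for B9d1, a comparison in which 0.00% of genes were called (0 of 8606 by limma, 125 at an unadjusted p under 0.05; edgeR called 0 of the 1110 genes given to it). HF minus MF was -0.08 for Kif3a (adjusted p = 0.781) and -0.60 for B9d1 (SE 0.19, adjusted p = 0.0246), where 36.9% of genes were called and 19.1% lower. The B9d1 difference missed the threshold without replicate 1 of MF (-0.72, adjusted p = 0.0557), without replicate 2 of MF (-0.48, adjusted p = 0.172) and without replicate 1 of HF (-0.35, adjusted p = 0.240).

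In polysome RNA neither gene was called between folate concentrations. The log2 difference of pLF and pMF was -0.20 for Kif3a and 0.13 for B9d1 (limma adjusted p = 0.790 and 0.868, 0.0930% of genes called). Leaving out 1 library gave -0.47 to 0.068 for Kif3a and 0.012 to 0.24 for B9d1. The difference of pHF and pMF was 0.32 and -0.20 (limma adjusted p = 0.566 and 0.715), and 0.055 to 0.59 and -0.29 to -0.11 with 1 library left out. There 0.00% of genes were called, 0 of 8606 by limma against 1030 at an unadjusted p under 0.05. On the 1110 genes given to edgeR, limma called 10 and edgeR 7. The change of the polysome to total difference between HF and MF was 0.41 for Kif3a (limma adjusted p = 0.332) and 0.40 for B9d1 (adjusted p = 0.285), and 25.6% of genes were called. Leaving out 1 library gave 0.14 to 0.68 for Kif3a and 0.15 to 0.65 for B9d1. Between LF and MF the change was -0.28 and -0.09 (adjusted p = 1.00 for both, 0.00% called, 0 of 8606 by limma against 356 at an unadjusted p under 0.05, and 0 of 1110 by edgeR). With 1 library left out it was -0.55 to -0.014 for Kif3a and -0.20 to 0.029 for B9d1.

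**Figure D3:**
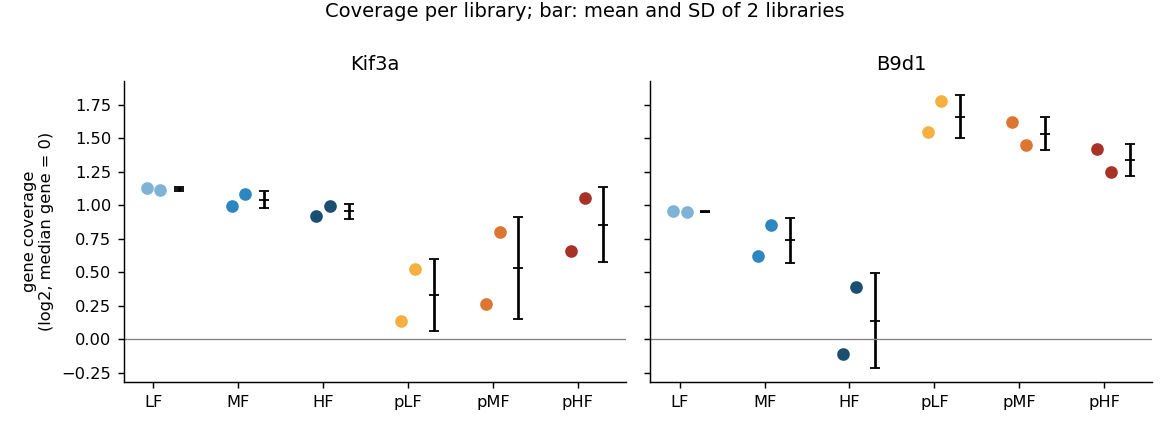
Gene coverage of Kif3a (left) and B9d1 (right) on the vertical axis (log2, median gene of each library at 0) by condition on the horizontal axis, 1 point per library, with the mean and SD of 2 libraries beside them. Kif3a lies between 0.92 and 1.13 in total RNA and between 0.14 and 1.06 in polysome RNA, and the B9d1 polysome points (1.25 to 1.78) are all above its total points (-0.11 to 0.96).

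Coverage was not lowered or raised evenly along the genes, and 3 blocks of exons per gene, drawn after the profile was seen, are given as descriptions. In Kif3a, whose first exons encode the motor domain, exons 1 to 8 stood at 0.84 to 1.10 in all total libraries and at -1.07 to -0.04 in polysome libraries, a polysome minus total difference of -1.56 in LF, -1.59 in MF and -1.15 in HF. Exons 9 to 14 did not show this: their differences were 0.03, 0.48 and 1.19, and their coverage was 2.94 and 2.99 in pHF against 1.77 and 1.78 in the libraries labelled HF. Exons 15 to 19 were again lower in polysome RNA, by differences of -1.12, -0.88 and -0.41, but in HF not evenly. In exon 18, which holds both called sites, the median coverage before scaling was 1768 and 2307 reads under the HF label. In pHF it was 605 and 683. In exon 15 it was 574 and 485.5 under the HF label against 856 and 907 in pHF. The polysome values of exons 1 to 8 rest on 8 to 77 listed cytosines of 207 per library, against 40 to 135 in total RNA. Those of exons 15 to 19 rest on only 6 of 82 in replicate 1 of pLF and of pMF. The value near 0 for the whole of Kif3a in HF was therefore made of blocks that differed in opposite directions.

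In B9d1, exons 1 to 6 were higher in polysome RNA by 0.91, 0.92 and 1.99 in LF, MF and HF. The coding stretch of exon 7 as a whole was higher by 0.74, 0.64 and 0.62. The called site lies 17 bases from the start of this exon, and there the difference was not even across folate. The 2 cytosines listed in all 12 libraries, of which the site is 1, had differences of 0.043, 0.074 and 1.48. The 3′ UTR of exon 7 had differences of -0.13, -0.23 and -1.08. They rest on 2 listed cytosines in each pMF library and on 3 in replicate 2 of pHF. In pMF this is fewer than the minimum of 3 set for whole genes. In total RNA the libraries labelled HF differed from MF by -1.14 over exons 1 to 6, by -0.17 over the coding stretch of exon 7 and by 0.63 over the 3′ UTR. The lower B9d1 coverage of the libraries labelled HF was thus found over exons 1 to 6 and also at the start of exon 7. Over exons 1 to 6, replicate 2 of HF rests on 9 listed cytosines of 123. Within 25 bases of the called site, the median coverage before scaling was 359.5 and 249 reads under the HF label. In MF it was 807 and 1059.5.

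**Figure D4:**
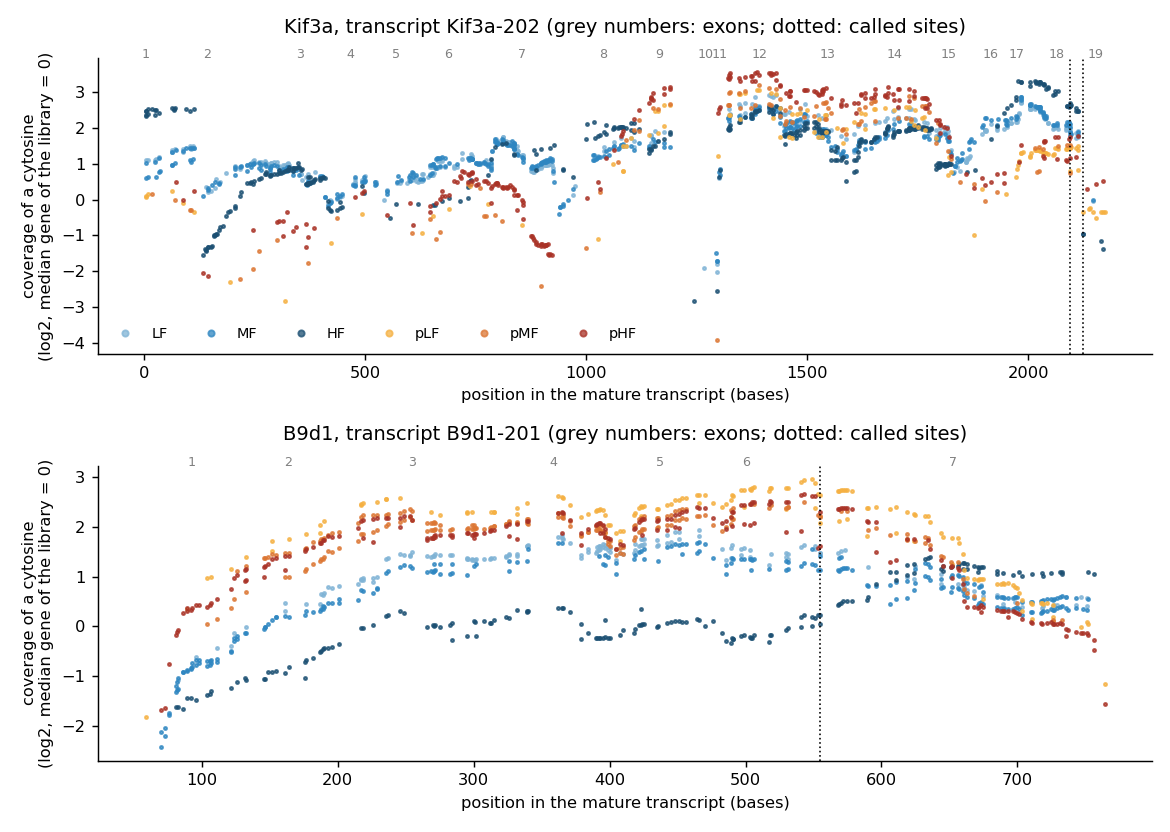
Centred log2 coverage (vertical) of each listed cytosine along the spliced transcripts Kif3a-202 (top) and B9d1-201 (bottom) by position in bases (horizontal), 1 dot per cytosine and library, coloured by condition, with exon numbers in grey and called sites as dotted lines. In Kif3a the polysome dots fall below the total ones over exons 1 to 8 (differences of -1.15 to -1.59) and meet or pass them over exons 9 to 14, and in B9d1 the dots of the libraries labelled HF fall below those of MF over exons 1 to 6 (-1.14).

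The partners of Kif3a in kinesin-II were given next. Kif3b, the motor subunit that pairs with Kif3a, had log2 differences of polysome and total RNA of -0.80, -0.97 and -0.63 in LF, MF and HF (limma adjusted p = 0.0120, 0.00423 and 0.0400). Its LF call was lost without replicate 1 of LF, replicate 2 of LF or replicate 1 of pLF (adjusted p = 0.0707, 0.0546 and 0.0776). Its HF call was lost with summed coverage scaling (-0.35, adjusted p = 0.223), without replicate 1 of HF (-0.39, adjusted p = 0.286) and without any 1 library of LF, MF or pHF (adjusted p = 0.0591 to 0.127). The MF difference of Kif3b was the one that stayed called in the alternatives run. With TMM scaling the 3 differences were -1.40, -1.58 and -1.09.

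Kifap3, the non-motor subunit that links the motor to its cargo, was lower in polysome RNA in LF (-1.11, limma adjusted p = 0.00648), a call lost without replicate 2 of LF (-1.03, adjusted p = 0.0512) or replicate 1 of pLF (-0.70, adjusted p = 0.0625). Its differences were -0.49 (adjusted p = 0.181) and -0.41 (adjusted p = 0.258) in MF and HF, and were called with TMM scaling (-1.10 and -0.87). Kif3c, an alternative partner of Kif3a, had differences of 0.29, 0.12 and -0.26 (adjusted p = 0.190, 0.605 and 0.242). With TMM scaling the MF difference of Kif3c turned to -0.49 (adjusted p = 0.0394) and that of HF was -0.71 (adjusted p = 0.00652), and without replicate 2 of pLF that of LF was 0.48 (adjusted p = 0.0324). Of these 3 partners, 2 were called lower in LF, 1 in MF and 1 in HF and none higher, beside 23.1%, 22.1% and 21.8% of all genes called lower.

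Kif3b had its own called site outside the libraries labelled HF, the only one of 84 listed genes of the cilium list to have one. It lay at chr2:153331766 on the plus strand and is shown, with its C in capitals, beside the second called site of Kif3b, which closes a GGGGC run as the second Kif3a site does.

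Kif3b site at chr2:153331766: tacttggtctCcaggtacatt
Kif3b site at chr2:153330743: ttgaatGGGGCagtggcttcc

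The first Kif3b site was called in pHF, where 9 of 56 and 12 of 103 reads were unconverted (16.1 and 11.7%). In the other polysome libraries that listed it, the level was 10.9% in replicate 2 of pLF and 1.59 and 18.9% in pMF, on 37 to 64 reads. In total RNA it was 0.612 to 2.27% in the 5 libraries that listed it, on 146 to 327 reads. The site was called through pHF alone, so its higher levels in polysome RNA follow in part from the rule, and replicate 1 of pMF lay within the range of total RNA. The second Kif3b site was called in the libraries labelled HF alone (22.1 and 40.2%) and was at or below 0.478% in the other libraries that listed it.

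The partners of B9d1 in the transition zone did not move as one. B9d2, its B9 domain partner, was higher in polysome RNA in LF and MF (log2 differences 1.49 and 1.62, limma adjusted p = 2.49e-05 and 1.46e-05) with 0.22 in HF (adjusted p = 0.331), and was higher in HF than in MF by 1.30 (adjusted p = 0.000193). With TMM scaling the first 2 were 0.89 and 1.01. Cc2d2a, a C2 domain protein of the zone, had differences of -1.35, -0.91 and -0.82 (adjusted p = 0.00120, 0.0145 and 0.0248). Its MF call was lost without either MF library or replicate 1 of pMF (-0.55, adjusted p = 0.144), and its HF call with summed coverage scaling (-0.54, adjusted p = 0.122), without replicate 1 of HF (-0.57, adjusted p = 0.193) and without replicate 2 of pHF (-0.69, adjusted p = 0.126). Tctn3, one of the tectonic proteins, had 0.83 in LF (adjusted p = 0.00838), which was 0.23 (adjusted p = 0.410) with TMM scaling and 0.68 (adjusted p = 0.0905) without replicate 2 of LF. In MF it had 0.23 (adjusted p = 0.416), and in HF it was lower in polysome RNA (-0.98, adjusted p = 0.00308).

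Tctn2, another tectonic protein, was lower in polysome RNA in HF (-1.45, limma adjusted p = 0.00312), by -0.92 without replicate 1 of pHF (adjusted p = 0.0458) and -1.98 without replicate 2 of pHF. Tmem231, a membrane protein of the zone, had -0.90 in HF (adjusted p = 0.0413), a call lost with summed coverage scaling (-0.62, adjusted p = 0.168), with only the groups compared (adjusted p = 0.0631), without replicate 2 of HF (-0.46, adjusted p = 0.360), without replicate 2 of pHF (-0.59, adjusted p = 0.260) and without either MF library. Ahi1, which works with the zone, had -0.66 in MF (adjusted p = 0.0153), a call lost without replicate 1 of MF (-0.57, adjusted p = 0.115) or replicate 2 of pMF (-0.44, adjusted p = 0.133). Mks1 (0.48, 0.63 and 0.17) and Tctn1 (0.29, -0.23 and -0.53) were called at no folate concentration between the pools by limma. With TMM scaling Tctn1 in MF and HF (-0.84 and -0.99), Tctn2 in MF (-1.32), Tmem231 in MF (-0.91) and Ahi1 in LF (-0.72) were called lower as well, whereas with summed coverage scaling Ahi1 in HF was called higher (0.70, adjusted p = 0.0179). Tctn1 in HF was also called lower without either pLF library, and Tctn2 in MF without replicate 1 of pMF (-1.07) or with at least 20 positions (-0.81). In the libraries labelled HF against MF, Tctn1 had 0.98 (adjusted p = 0.00521), a call lost without replicate 1 of MF (adjusted p = 0.0534) or replicate 1 of HF (adjusted p = 0.0605). Tctn3 had 0.78 (adjusted p = 0.0182), a call lost with TMM (0.58, adjusted p = 0.0599) and summed coverage scaling (0.56, adjusted p = 0.0975) and without any 1 library of MF or HF. Ahi1 had -0.60 (adjusted p = 0.0320), a call lost without any 1 library of LF, MF or HF (adjusted p = 0.0531 to 0.195). Tmem67, a membrane receptor of the zone, had too few positions to be tested. Of the 8 partners tested, 2 were called higher and 1 lower in LF, 1 higher and 2 lower in MF, and none higher and 4 lower in HF. Beside these counts, 28.0%, 27.5% and 28.3% of all genes tested were called higher and 23.1%, 22.1% and 21.8% lower, in the same order of folate.

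**Figure D5:**
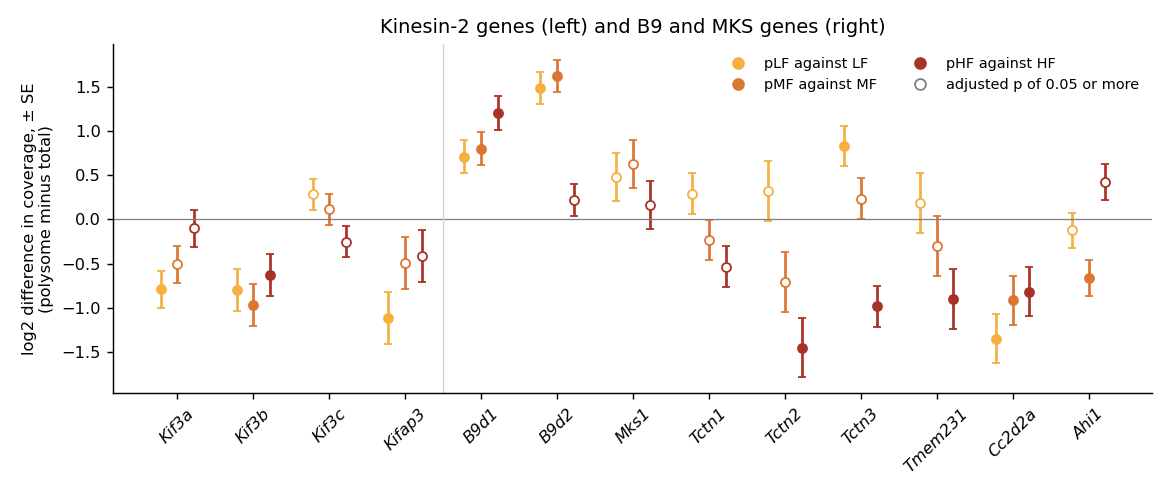
Log2 difference of polysome and total coverage (vertical, ± SE from limma) for Kif3a, B9d1 and their kinesin-II and transition zone partners (horizontal), in 1 colour per folate concentration, filled where the adjusted p was under 0.05. B9d1 is above 0 at each concentration (0.71, 0.80 and 1.20), Kif3a and Kif3b are below 0 with the median centring drawn (Kif3a in HF at -0.10, and at 0.18 with summed coverage scaling), and B9d2 is at 1.49 and 1.62 in LF and MF and 0.22 in HF.

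Over the wider list of 88 cilium genes (intraflagellar transport, dynein-2, transition zone, BBSome, ciliary membrane, hedgehog pathway and motile cilia), 54 had enough positions. Between pools, 10 of the 54 were higher and 11 lower in LF (18.5 and 20.4%, against 28.0 and 23.1% of all genes), with a median difference of 0.14 (0.07 over all genes). In MF, 10 were higher and 10 lower (against 27.5 and 22.1%), with a median of -0.02 (0.04 over all genes). In HF, 8 were higher and 21 lower (14.8 and 38.9%, against 28.3 and 21.8%), and the median was -0.49 (0.05 over all genes). This last split rests on the libraries labelled HF, and the list's share of called genes in LF and MF was below that of all genes in both directions.

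The 3 largest called differences between pools at each folate concentration included B9d2 in MF, given above. Ift80, a subunit of the IFT-B complex of outward transport, was lower in polysome RNA by -1.92 (SE 0.26) in LF and -1.54 (SE 0.26) in MF. Wdr35, of the IFT-A complex of return transport, was lower by -1.80 (SE 0.25) and -1.56 (SE 0.25), and Ttc21b, also of IFT-A, had -1.58 (SE 0.53) in LF, a call lost without replicate 1 of LF (adjusted p = 0.0670), replicate 2 of LF (adjusted p = 0.0971) or replicate 1 of pLF (-1.04, adjusted p = 0.188). In HF, Ift20 (1.77, SE 0.19) and Cluap1 (1.72, SE 0.19), both of IFT-B, were higher and Cep164, a protein of the distal appendages of the basal body, was lower (-1.75, SE 0.31). The adjusted p of these differences ran from 1.14e-05 to 0.0228 (limma).

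In the libraries labelled HF against MF, 13 genes of the list were higher and 7 lower (24.1 and 13.0%, against 17.8 and 19.1% of all genes), with a median of 0.11 (-0.03 over all genes). The largest was Gli1, the hedgehog target and transcription factor (2.24, SE 0.37, limma adjusted p = 0.000591), followed by B9d2 and by Ift20 (-1.27, SE 0.19, adjusted p = 0.000291). The study's own RNA-seq of total mRNA, from other libraries and by another measure, reported only a few genes with mild changes between HF and MF. Gli1 was not named among them, while Ptch1, also of the list's hedgehog group, was named with decreased mRNA. Here 4 of the 8 hedgehog genes tested were called higher under the HF label and 0 lower. These are 50% and 0%, against 17.8 and 19.1% of all genes. The change of the polysome to total difference between HF and MF was called in 12 genes of the list, 6 in each direction (11.1% each, against 13.1% of all genes higher and 12.5% lower). In the other comparisons limma called 0 of the 54: LF against MF (0 at an unadjusted p under 0.05), pLF against pMF (7), pHF against pMF (6) and the change of the polysome to total difference between LF and MF (2). None of the 9 genes of motile cilia had enough positions to be tested.

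Called sites were not confined to the pair of genes. Of the 84 cilium genes with a listed cytosine, 14 had a called site (16.7%, against 12.2% of all 16172 genes), and without the libraries labelled HF 1 had one (1.19%, against 1.95%). Kif3a and B9d1 were not counted among them.

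The genes whose coverage pattern over the 12 libraries was most like that of Kif3a, of 8606 genes, were Sh3kbp1 (Pearson r 0.957), Lims1 (0.954), Ncl (0.953), Gm15344 (0.949) and Itgb1 (0.948). For B9d1 they were Commd1 (0.982), Zmat5 (0.977), Ranbp1 (0.974), Srp9 (0.973) and 2310039H08Rik (0.970). Over the 10 libraries without those labelled HF, a choice made after seeing the data, the r of these genes was 0.951 to 0.972 for Kif3a, at ranks 1 to 10, and 0.927 to 0.983 for B9d1, at ranks 6 to 498. The 12 points share the split into total and polysome RNA and the libraries labelled HF, and the values are descriptions.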

How the data were processed

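RNA BS-seq lists of 12 libraries were used. Per the labels and the methods, the authors trimmed reads with fastp, aligned them to mm10 with meRanGh and called cytosines with meRanCall (meRanTK); R 4.1.1 is named in the submitters' processing notes. The deposited lists give read counts per cytosine (coverage, unconverted and variant reads) and the methylation level as a fraction. A cytosine was listed at a coverage of at least 10 with at least 1 unconverted read, and the lists precede the authors' later filters. Reads carried no stated molecular identifiers, so Wilson 95% intervals cover counting error only. One read covers many cytosines, so coverage is not a count of independent reads, and fully converted cytosines add nothing to it.

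Records of state M were used. Gene coverage was fitted additively over exonic cytosines listed in at least 2 libraries (at least 3 per library), centred on the median gene and tested with limma 3.58.1 (trend, 6 groups of 2, two-sided, Benjamini-Hochberg, threshold 0.05). The planned filter, at least 5 cytosines listed in all 12 libraries, kept 1110 genes without Kif3a or B9d1, so the additive fit of 8606 genes was added after seeing the data. edgeR 4.0.16 on summed coverage was an alternative. TMM scaling took library sizes and factors from the summed coverage of these 1110 genes and applied them to all 8606. On values simulated around the fitted gene means (pMF against MF, 8606 genes, 200 changed), limma recovered 0% of log2 changes of 0.5, 45% of 1 and 95% of 2. The fit over positions and the listing of cytosines were not simulated. Far fewer genes were changed there than the 49.7% called in the data, so these shares do not give the recovery in the data. Folding used RNAfold 2.7.2, and annotation was GENCODE on GRCm38. The named genes were the members, their partners, the 3 largest called cilium genes per comparison and the 5 most alike in pattern. Members and lists were chosen with earlier results of these data known. The labels name replicates but not separate cultures, so p-values measure the spread between these libraries.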

Additional observations from a re-analysis of the deposited data

Results flagged for a closer look

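The polysome to total difference changed between HF and MF in 7 of the named cilium genes, by the test of the change itself in limma (log2, all resting on the libraries labelled HF), a test that called 25.6% of all 8606 genes. It was higher in HF at Arl6, a small GTPase of BBSome recruitment (1.34, adjusted p = 0.0139), Ift20 (1.33, adjusted p = 0.00429), Ahi1 (1.08, adjusted p = 0.0162) and Cluap1 (0.79, adjusted p = 0.0492). It was lower in HF at Gli1 (-1.60, adjusted p = 0.0407), B9d2 (-1.40, adjusted p = 0.00268) and Tctn3 (-1.22, adjusted p = 0.0166). Kif3a and B9d1 were not among them. The count of 7 follows in part from how the genes were named. Gli1, B9d2 and Arl6 were the largest called cilium genes of this same comparison, B9d2 being also a partner of B9d1. Ift20 and Cluap1 were among the largest of pHF against HF, which uses the same HF and pHF libraries. Of the 54 cilium genes tested, 6 were called higher and 6 lower (11.1% each, against 13.1% and 12.5% of all genes). The call of Cluap1 was lost with the replicate block (adjusted p = 0.0547) and without any 1 library of LF, MF, HF, pMF or pHF. That of Gli1 was lost with TMM (adjusted p = 0.0619) and summed coverage scaling (-1.36, adjusted p = 0.110) and without any 1 library of the same conditions. That of Tctn3 was lost with summed coverage scaling (-0.98, adjusted p = 0.0609) and without replicate 2 of MF or of pHF. That of Ahi1 was lost without replicate 1 of MF, replicate 1 of HF or replicate 2 of pMF, and that of Arl6 without replicate 1 of MF (1.28, adjusted p = 0.0612).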

How the results depend on the processing

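The number of genes called by the planned measure (722 in LF, 714 in MF and 816 in HF between pools, 754 between HF and MF, 629 for the change between HF and MF) fell to 430, 417, 481, 433 and 365 with at least 20 shared cytosines, rose to 1592, 1623, 1739, 1622 and 1304 with at least 1, and was 4393, 4274, 4312, 3175 and 2200 with the additive fit, which tests other numbers of genes. pLF against pMF gave 0, or 8 by the additive fit. pHF against pMF gave 10, and 2 with summed coverage scaling, 5 with median coverage, 5 with the replicate block, 3 with the block and the numbers of pHF crossed, and 0 with the additive fit or only the groups compared. In the additive fit, pLF against LF gave 2893 genes with at least 20 positions, pLF against pMF 25 with TMM, 3 with at least 20 positions, 1 with only the groups compared and 3 without the libraries labelled HF, and the change between LF and MF 1 with the replicate block. The deviations of same-numbered replicates were little correlated between groups (r -0.158 to 0.0821). Such deviations also hold differences of single libraries, so these values do not show whether replicate numbers pair the cultures. For Kif3a, pMF against MF was called with TMM (-1.12), with the replicate block (-0.51) and with at least 20 positions (-0.61), and pHF against HF with TMM (-0.56). For B9d1, pLF against LF (0.11) and pMF against MF (0.19) lost the call with TMM. On the cytosines shared by all 12 libraries the Kif3a values were -1.60 and -1.59 for these comparisons, and the B9d1 values 0.043 and 0.074, and 1.40 for the change between HF and MF; these rest on the called site (alone in Kif3a, as 1 of 2 in B9d1), whose coverage the rule used, so no call is read from them. Kif3c, pMF against MF, reversed with TMM (-0.49). The share at other Kif3a cytosines passed with all listed cytosines (0.0931), and 1 site was called at a level of 20%. The causes were not tested. Leaving out 1 library gave 580 to 751, 566 to 799, 705 to 867 and 630 to 819 genes, 0 to 1 for LF against MF, 0 to 192 for pLF against pMF, 0 to 109 for pHF against pMF, 0 to 36 and 509 to 715 for the changes at LF and HF. In the additive fit it gave 3222 to 4499, 2887 to 4810, 3328 to 4892 and 1638 to 3818, 0 to 1, 2 to 459, 0 to 49, 0 to 23 and 1035 to 2905. It gave -0.98 to -0.60 for Kif3a in LF, -0.78 to -0.24 in MF, -0.30 to 0.098 in HF and -0.85 to -0.35 for B9d1 between HF and MF. The 2 replicates per condition and unlisted fully converted cytosines limit what can be compared.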
